A study of Mus musculus with 13 samples.

Results

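Interferon-stimulated genes are the genes that cells switch on when interferon binds its receptors. A set of 39 of them was followed on 13 arrays of mouse colorectal tissue, out of 25393 genes and transcripts that passed the filter on dim probes. The members were taken by symbol from the gene names printed in the scanner files, and each was represented by its brightest probe. All 39 were on the array and all 39 passed the filter, which asked for a signal well above background on at least 2 arrays. On all 13 arrays 37 of them were well above background. The exceptions were Oas1g, measured on the 4 microRNA arrays and on none of the 9 control arrays, and Oas3, measured on every array but 1 control tumor.

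The tissue came from CPC-Apc mice (CDX2P-NLS Cre;Apc+/loxP), in which a Cdx2-driven Cre recombinase deletes 1 floxed allele of Apc, so that tumors arise in the large bowel. All 4 groups carry this genotype. The groups were tumors of mice given miR-200c, miR-302 (-a, -b, -c and -d) and miR-369 (-3p and -5p) (2 arrays), tumors of control mice (7 arrays), normal tissue of microRNA mice (2 arrays) and normal tissue of control mice (2 arrays). The microRNAs, 25 µg of each, or a negative control microRNA were carried by super carbonate apatite particles into the tail vein, in 24 injections at 3 a week from 8 weeks of age. The labels of control arrays give the negative control only as a short code, and the same schedule is assumed for them. The labels do not tie samples to animals, some samples may share a mouse, and a p-value here rests on the spread among arrays of a group. A number in the file names is shared by control tumors 1 and 2, and another by control tumors 4 to 7. Control tumor 3 shares its number with control normal 2. MicroRNA normal 1 shares its number with microRNA tumor 1, and microRNA normal 2 with microRNA tumor 2. The main fits leave the number out. What the number marks is not labelled. As a random block it gave a within-number correlation of 0.35 for the tumor difference over both groups of mice.

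As background, type I interferons and lambda interferons act through receptor-bound JAK1 and TYK2 kinases on transcription factors, among them STAT2, which join IRF9 and bind the interferon-stimulated response element of target promoters. Interferon gamma acts on another element, the gamma-activated site. The targets include RNA and DNA sensors, enzymes that block viral translation or mark viral RNA for decay, and IRF7, which raises further type I interferon production. In the healthy bowel many of these genes run at a standing low level.

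Sequences of 4 promoters, searched for the element through which the pathway acts, are shown. Each belongs to the member with the smallest p for tumor against normal tissue in its role group, and the other role groups are not shown. Each runs 5′ to 3′ on the strand of the gene, from 250 bases before to 50 after the annotated start (RefSeq, GRCm38.p6). Capitals mark GAAA, any 2 bases and GAAA again, on either strand, the core of the interferon-stimulated response element.
Irf7 (chr7:141266375-141266674, minus strand): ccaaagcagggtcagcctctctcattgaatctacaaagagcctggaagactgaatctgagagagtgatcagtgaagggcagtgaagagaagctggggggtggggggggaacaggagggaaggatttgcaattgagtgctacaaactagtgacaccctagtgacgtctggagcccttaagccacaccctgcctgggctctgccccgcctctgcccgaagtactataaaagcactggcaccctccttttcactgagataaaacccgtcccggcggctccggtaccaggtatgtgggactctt
Ifih1 (chr2:62646206-62646505, minus strand): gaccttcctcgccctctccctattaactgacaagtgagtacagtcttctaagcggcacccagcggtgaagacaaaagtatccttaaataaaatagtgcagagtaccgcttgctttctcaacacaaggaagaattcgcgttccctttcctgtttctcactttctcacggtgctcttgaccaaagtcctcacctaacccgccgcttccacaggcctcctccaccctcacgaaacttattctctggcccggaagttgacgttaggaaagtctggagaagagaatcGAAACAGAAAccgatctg
Oas1a (chr5:120907476-120907775, minus strand): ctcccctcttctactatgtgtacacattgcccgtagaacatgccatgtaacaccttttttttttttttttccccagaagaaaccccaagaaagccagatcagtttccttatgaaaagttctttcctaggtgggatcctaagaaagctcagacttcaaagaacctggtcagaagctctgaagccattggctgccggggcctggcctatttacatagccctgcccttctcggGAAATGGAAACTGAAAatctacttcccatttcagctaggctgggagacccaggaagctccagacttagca
Isg15 (chr4:156200769-156201068, minus strand): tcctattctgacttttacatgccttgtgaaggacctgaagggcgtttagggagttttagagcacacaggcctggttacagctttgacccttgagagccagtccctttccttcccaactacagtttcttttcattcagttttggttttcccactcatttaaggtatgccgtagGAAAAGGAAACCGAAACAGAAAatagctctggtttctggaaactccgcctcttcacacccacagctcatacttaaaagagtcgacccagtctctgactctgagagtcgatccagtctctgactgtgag

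The Isg15 promoter holds 3 overlapping matches, of which the one farthest from the start begins 78 bases before it, and Oas1a holds 2 that overlap. Ifih1 holds 1, after the start, and the Irf7 window holds none of these letters. In the role groups not shown, the members with the smallest p were Ifi35, Ifit1, Irgm1 and Cxcl10. The Ifi35 window holds no match, and those of Ifit1, Irgm1 and Cxcl10 hold at least 1 each. A promoter was at hand for 29 of the 39 members. This core was found in 17 of them (58.6%), and in 3.99% of the 27025 genes in the RefSeq table (3.44% of its 32851 promoters), where a gene with several promoters counts if any of them holds it. The gamma-activated site, searched as TTC, any 3 bases and GAA on either strand, was found in 7 of the 29 (24.1%) and in 9.55% of all genes (8.3% of all promoters). Among members with a promoter, 4 of the 9 called lower in tumors and 13 of the 20 not called held the response element core. A match describes the letters of the window and is not evidence of binding.

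Relative to normal tissue, tumors had lower levels of 11 of the 39 genes and a higher level of none. The genes that fell include Irf7, the sensors Ifih1, Dhx58 and Zbp1, 4 members of the Oas family and Isg15. This compares all 9 tumors with all 4 normal samples with treatment in the model, by limma with Benjamini-Hochberg adjustment over all 25393 genes at 0.05. The 11 genes are 28.2% of the members, against 19.7% of all genes tested that were called lower in tumors and 11.7% called higher (31.4% in all). The difference was negative for 34 members and positive for 5. Its median over the members was -0.67 on the log2 scale, against -0.11 over all genes. At an unadjusted p under 0.05 there were 17 members (43.6%), against 43.9% of all genes. Here a level is the log2 of the signal relative to the 75th percentile of its array, and a difference is tumor minus normal on that scale. In whole tissue, fewer cells of a type and less RNA per cell cannot be told apart.

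The arrays' intensity went with the tissue: the 75th percentile was 415 to 740 on the tumor arrays and 214 to 320 on the normal arrays. Without scaling between arrays the median difference of all genes moved to 0.89 and that of the members to 0.33, and then 11 members had a negative difference. In that setting 7 were called higher: Cxcl10, Eif2ak2, Gbp3, Irf9, Ddx58, Parp9 and, on its brightest probe, Trim25. Irf7 was the 1 called lower. Of all genes, 57.4% were called higher and 2.73% lower. Relative to the median of all genes, 30 of the 39 members lay below it both with and without scaling. This scaling moves the difference of every gene by the same amount, so that count could not change with it. The count was 27 with normexp background correction and 33 with quantile normalization. With median scaling 5 were called lower (Irf7, Ifih1, Dhx58, Oas1a and Oasl2), which is 12.8% of the members against 12.5% of all genes. With quantile normalization 8 were lower (20.5%, against 14.9% of all genes) and Trim25 was higher on its brightest probe. That probe, described below, shares bases with probes of 76 other gene names. With normexp background correction 12 were lower (30.8%, against 38.0% of all genes), so the members' share was above that of all genes in some settings and at or below it in others. With the slide as a block 8 were lower (20.5%, against 19.3% of all genes). The members' median difference was -0.82 on slide 1 (8 arrays) and -0.47 on slide 2 (5 arrays). Slide 1 holds no control normal array, so its difference is that of 1 microRNA tumor and 1 microRNA normal array. Slide 2 holds 1 tumor of each treatment, so no calls are given for either slide. The counts that follow, each without 1 array, stand without the share of all genes. The count was 2 without control normal 2, 5 without microRNA normal 1, 6 without microRNA tumor 2 and 18 without control tumor 3.

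**Figure D1:**
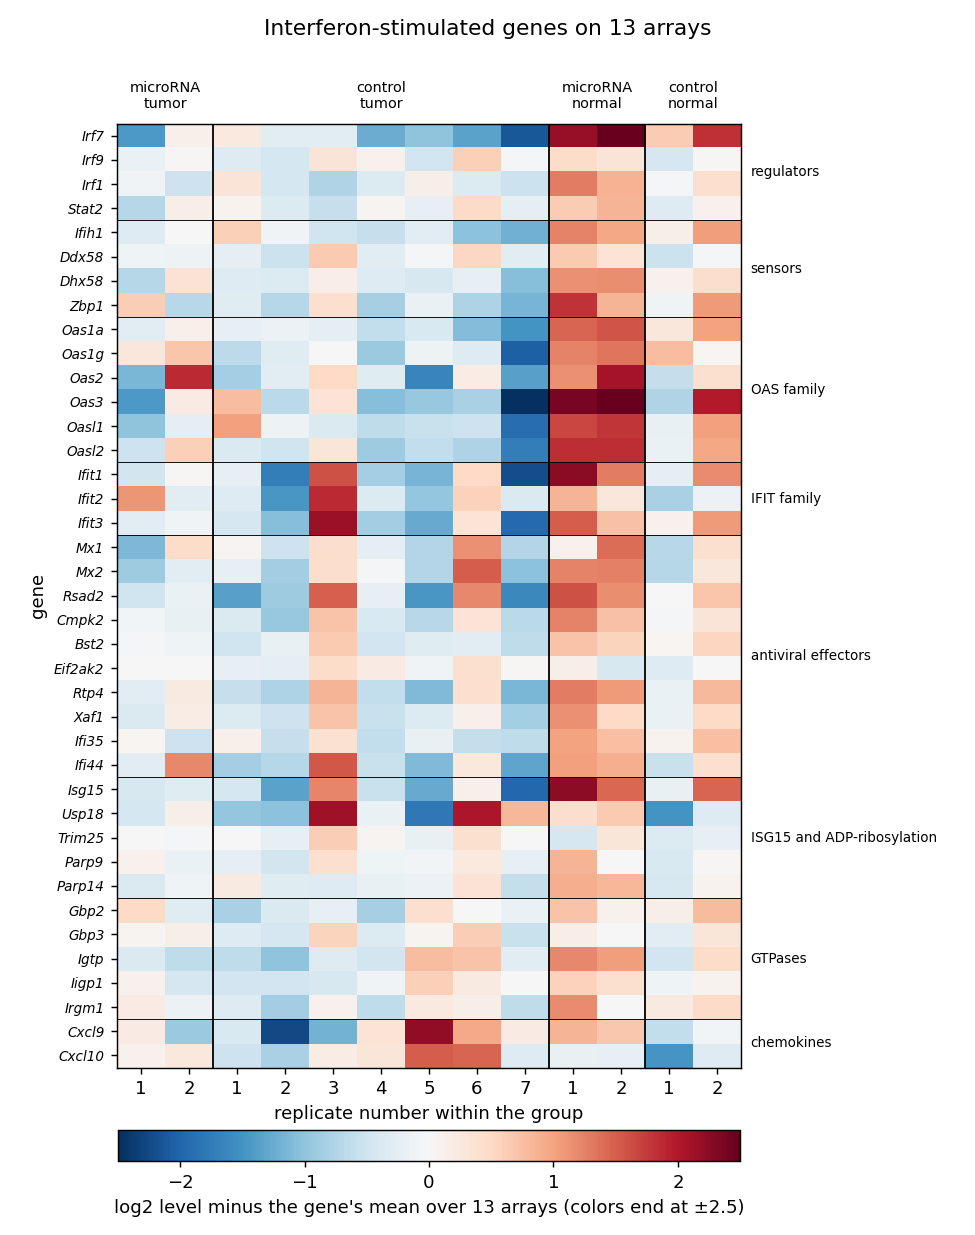
Level of each of the 39 genes (rows, by role) on each of the 13 arrays (columns, by group), as log2 difference from the gene's own mean over the 13 arrays. Both microRNA normal arrays are red for most genes, control normal 1 is paler than control normal 2, and among control tumors number 3 stands high for the Ifit genes while number 7 stands low for most genes.

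Among the transcription factors, 2 of 4 were lower in tumors. Irf7, which drives type I interferon production, had levels of -1.09 and 0.49 in microRNA tumors, and from -1.77 through a median of -0.66 to 0.60 in the 7 control tumors. Its levels were 2.54 and 3.05 in microRNA normal tissue, and 0.98 and 2.18 in control normal tissue. Every tumor lay below every normal sample, and Irf7 was 5.59-fold lower in tumors (log2 difference -2.48, SE 0.465, limma adjusted p = 0.00329). Groups that do not overlap in this direction were seen for 2 members, Irf7 and Oas1a, and for 10.5% of all genes; in the other direction they were seen for 0 members and 6.9% of all genes.

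Irf1, an activator induced mainly by interferon gamma, had levels of 4.39 and 3.96 in microRNA tumors, and of 3.73 to 4.81 (median 4.13) in control tumors. Its levels were 5.76 and 5.34 in microRNA normal tissue, and 4.44 and 4.91 in control normal tissue. Control tumors 1 and 5 were above control normal 1, and the difference was -0.82 (SE 0.251, limma adjusted p = 0.0267). Stat2, which carries an activating domain of the complex with IRF9, had levels of 1.31 and 2.17 in microRNA tumors and 1.45 to 2.49 (median 1.82) in control tumors. It had 2.66 and 2.87 in microRNA normal tissue, and 1.71 and 2.14 in control normal tissue, within the range of the tumors. Stat2 and Irf9, the DNA-binding partner, were not called, with differences of -0.40 and -0.09.

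Of the 4 sensors, 3 were lower in tumors. Ifih1, which encodes the long double-stranded RNA sensor MDA5, had levels of 1.55 and 1.86 in microRNA tumors, and of 0.68 to 2.46 (median 1.38) in control tumors. Its levels were 3.12 and 2.84 in microRNA normal tissue, and 2.02 and 2.93 in control normal tissue. Control tumor 1 was the only tumor above the lowest normal sample, and Ifih1 was 2.19-fold lower in tumors (log2 difference -1.13, SE 0.307, limma adjusted p = 0.0165). Dhx58 (LGP2), a regulator of the RNA sensors, had levels of -1.65 and -0.57 in microRNA tumors, and -2.01 to -0.78 (median -1.26) in control tumors. Its levels were 0.20 and 0.22 in microRNA normal tissue, and -0.83 and -0.50 in control normal tissue, so that control normal 1 was the only normal sample within the range of the tumors. The difference was -0.90 (SE 0.256, limma adjusted p = 0.0199).

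Zbp1, a sensor of left-handed nucleic acid that triggers cell death, had levels of 2.18 and 0.87 in microRNA tumors, and of 0.40 to 1.98 (median 0.86) in control tumors. Its levels were 3.37 and 2.43 in microRNA normal tissue, and 1.46 and 2.62 in control normal tissue. Its brightest probe differed by -1.13 (limma adjusted p = 0.0304). A second Zbp1 probe, for another transcript, differed by -0.63 and was not called (limma adjusted p = 0.153 in a fit of all probes). Ddx58 (RIG-I), the sensor of RNA with a free 5′ triphosphate, was not called, with a difference of -0.09 (SE 0.262).

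The Oas family encodes enzymes that are switched on by double-stranded RNA to make the activator of RNase L, and relatives that lack this activity or serve as sensors' partners. All 6 members measured had a negative difference, 4 of the 6 without scaling between arrays, and 4 were called lower (2 with median scaling and none without scaling). Oas1a had levels of 4.35 and 4.75 in microRNA tumors, and 3.13 to 4.47 (median 4.25) in control tumors. Its levels were 6.09 and 6.19 in microRNA normal tissue, and 4.90 and 5.63 in control normal tissue, with no overlap between tumors and normal samples. Oas1a was 2.59-fold lower in tumors (log2 difference -1.37, SE 0.271, limma adjusted p = 0.00415).

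Oasl2 had levels of 1.19 and 2.30 in microRNA tumors, and -0.02 to 2.01 (median 1.09) in control tumors. Its levels were 3.55 and 3.56 in microRNA normal tissue, and 1.53 and 2.67 in control normal tissue. Of the normal samples, control normal 1 lay within the tumors (difference -1.35, limma adjusted p = 0.0157). Oasl1, known in mouse to restrain translation of Irf7, had levels of 1.93 and 2.70 in microRNA tumors, and 1.03 to 3.96 (median 2.42) in control tumors. Its levels were 4.60 and 4.71 in microRNA normal tissue, and 2.75 and 3.96 in control normal tissue. Control tumor 1 was about as high as control normal 2 (difference -1.44, limma adjusted p = 0.0356).

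Oas3 differed by -2.13 (SE 0.714, limma adjusted p = 0.039), with levels of -5.67 to -1.92 in control tumors and -3.45 and -0.71 in control normal tissue. Oas2 differed by -0.76 and was not called. Oas1g missed the threshold (difference -0.94, limma adjusted p = 0.0502), and it was not well above background on any control array.

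The 3 Ifit genes encode proteins that bind foreign RNA ends and stop its translation, and none was called. Ifit1 had levels of -1.25 and -0.78 in microRNA tumors, and -3.02 to 0.79 (median -1.66) in control tumors. Its levels were 1.46 and 0.48 in microRNA normal tissue, and -1.02 and 0.37 in control normal tissue. Control tumor 3 lay above 3 of the 4 normal samples, and the difference of -1.42 carried an SE of 0.631 (limma adjusted p = 0.102). Ifit3 had levels of -0.49 and -0.32 in microRNA tumors and of -2.19 to 1.93 (median -1.10) in control tumors. It had 1.27 and 0.50 in microRNA normal tissue, and -0.14 and 0.84 in control normal tissue (difference -1.13, SE 0.613), and control tumor 3 was above all 4 normal samples. Ifit2 had levels of -0.23 and -1.60 in microRNA tumors and -2.78 to 0.53 (median -1.66) in control tumors. Its levels were -0.48 and -1.05 in microRNA normal tissue, and -2.13 and -1.47 in control normal tissue, so the groups overlapped throughout (difference 0.14, SE 0.523).

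Of the 10 further antiviral effectors, 1 was lower in tumors. Ifi35, whose protein pairs with the NMI adaptor, had levels of 1.67 and 1.10 in microRNA tumors, and 0.97 to 1.99 (median 1.04) in control tumors. Its levels were 2.62 and 2.36 in microRNA normal tissue, and 1.70 and 2.36 in control normal tissue (difference -0.87, SE 0.242, limma adjusted p = 0.0182). Control tumors 1 and 3 were above control normal 1. Bst2 (tetherin), which holds budding virus at the cell surface, had levels of 1.99 and 1.92 in microRNA tumors, and 1.40 to 2.69 (median 1.73) in control tumors. Its levels were 2.74 and 2.59 in microRNA normal tissue, and 2.07 and 2.56 in control normal tissue. All tumors but control tumor 3 lay below all normal samples, and the difference of -0.60 missed the threshold (limma adjusted p = 0.0579).

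Rtp4, a receptor chaperone, had levels of 2.12 and 2.61 in microRNA tumors, and 1.25 to 3.24 (median 1.77) in control tumors. It had 3.67 and 3.45 in microRNA normal tissue, and 2.23 and 3.20 in control normal tissue (difference -0.92, limma adjusted p = 0.0781). The others did not pass either. The differences were -1.13 for Rsad2 (viperin), -0.69 for Cmpk2, a nucleotide kinase, -0.67 for Mx2 and -0.39 for Mx1, dynamin-like GTPases that trap viral cores. They were -0.61 for Xaf1, a cell death factor, -0.40 for Ifi44 and 0.20 for Eif2ak2 (PKR), the kinase that halts translation on double-stranded RNA.

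**Figure D2:**
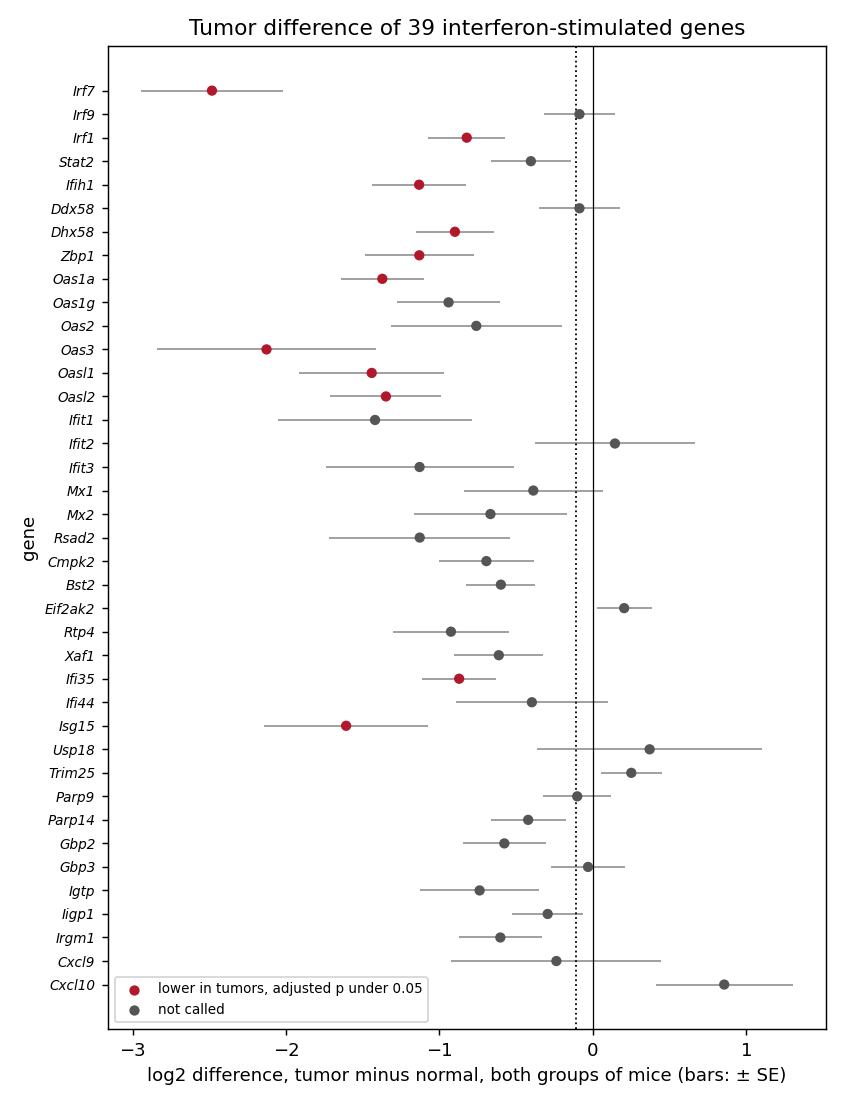
Tumor minus normal log2 difference of each gene over both groups of mice (points, with bars for 1 SE either side), with the median of all genes as a dotted line at -0.11. The 11 red points, from -2.48 for Irf7 to -0.82 for Irf1, are the genes called lower; no gene is called higher.

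In the group around ISG15, the ubiquitin-like modifier, 1 of 5 genes was lower in tumors. Isg15 had levels of 2.40 and 2.49 in microRNA tumors, and 0.83 to 4.01 (median 2.25) in control tumors. Its levels were 5.04 and 4.24 in microRNA normal tissue, and 2.61 and 4.24 in control normal tissue. It was 3.05-fold lower in tumors (log2 difference -1.61, SE 0.535, limma adjusted p = 0.0378), and control tumors 3 and 6 overlapped the normal samples. Usp18, the protease that removes ISG15 and dampens the receptor, ran from -1.01 to 2.89 in control tumors and was not called (difference 0.37, SE 0.735). Parp14, an ADP-ribosyltransferase, had levels of 2.00 and 2.26 in microRNA tumors, and 1.77 to 2.72 (median 2.17) in control tumors. Its levels were 3.28 and 3.19 in microRNA normal tissue, and 1.96 and 2.46 in control normal tissue, both within the range of the tumors (difference -0.42, SE 0.245). Parp9, its partner, differed by -0.10.

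Trim25, the ubiquitin ligase that acts on RIG-I, gave opposite directions on its probes. Its brightest probe had levels of 5.13 and 5.09 in microRNA tumors, and 4.91 to 5.72 (median 5.12) in control tumors. On the same probe the levels were 4.69 and 5.41 in microRNA normal tissue, and 4.76 and 4.90 in control normal tissue. The difference of 0.25 did not pass (limma adjusted p = 0.345). The second probe had levels of 4.28 and 4.64 in microRNA tumors, and 4.25 to 5.11 (median 4.51) in control tumors. It had 5.60 and 5.35 in microRNA normal tissue, and 5.03 and 5.14 in control normal tissue, and every tumor but control tumor 1 was below every normal sample. Its difference was -0.73 (SE 0.185, adjusted p = 0.0124 in the limma fit of all probes).

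The 60-base probes of these genes show what each measured; capitals mark repeats of GT in the Trim25 probes, and in the Isg15 probes bases shared with a probe of another gene name.
Trim25, brightest probe: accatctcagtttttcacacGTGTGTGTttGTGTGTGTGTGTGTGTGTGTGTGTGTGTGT
Trim25, second probe: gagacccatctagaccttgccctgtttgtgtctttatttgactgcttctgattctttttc
Isg15, brightest probe: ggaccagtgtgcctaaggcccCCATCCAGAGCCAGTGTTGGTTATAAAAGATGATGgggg
Isg15, second probe: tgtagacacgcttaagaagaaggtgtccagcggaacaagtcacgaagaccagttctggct
The brightest Trim25 probe ends in a run of 30 bases of GT repeat and shares at least 20 bases in a row with probes of 76 other gene names. The second Trim25 probe shares none, at mm9 chr11:88881521-88881580. The brightest Isg15 probe, at mm9 chr4:155573649-155573708, shares 35 bases with a probe named Gm9706. The second Isg15 probe shares none and differed by -1.28 (adjusted p = 0.0888 in the limma fit of all probes). Of 53 member probes, these were the 2 that shared 20 bases with a probe of another name.

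**Figure D3:**
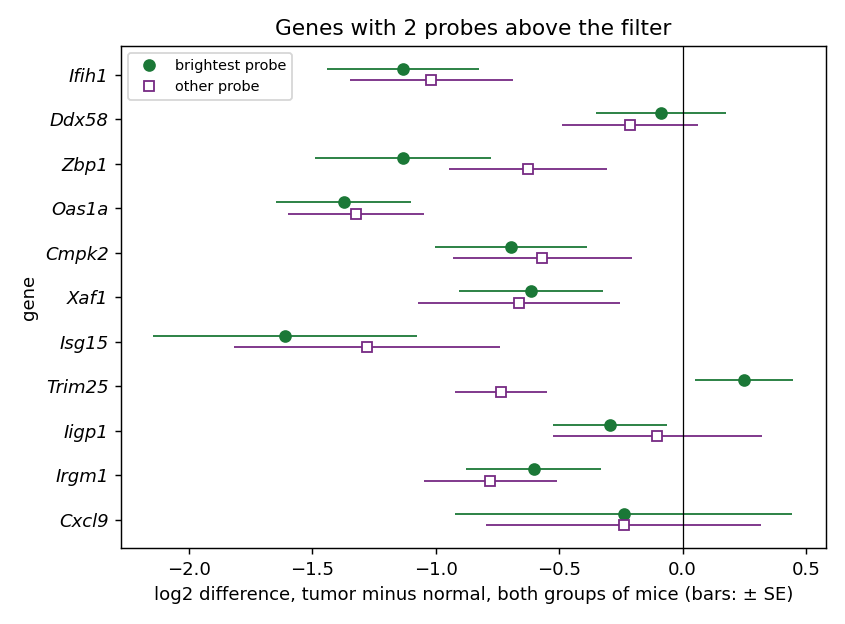
Tumor minus normal log2 difference (with bars for 1 SE either side) for the 11 genes with 2 probes that passed the filter, with the brightest probe as a filled circle and the other as an open square. Both probes of a gene lie on the same side of 0 except for Trim25, at 0.25 and -0.73.

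None of the 5 interferon-inducible GTPases, which act on vacuoles of intracellular microbes, was called. Irgm1 had levels of 1.93 and 1.58 in microRNA tumors, and 0.86 to 1.96 (median 1.40) in control tumors. Its levels were 2.91 and 1.72 in microRNA normal tissue, and 1.95 and 2.21 in control normal tissue (difference -0.60, limma adjusted p = 0.106). Its second probe differed by -0.78 (adjusted p = 0.0456 in the limma fit of all probes). Gbp2 had levels of 1.22 and 0.41 in microRNA tumors, and -0.11 to 1.14 (median 0.52) in control tumors. It had 1.43 and 0.84 in microRNA normal tissue, and 0.86 and 1.51 in control normal tissue (difference -0.58, limma adjusted p = 0.119).

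Igtp (Irgm3) had levels of 1.07 and 0.80 in microRNA tumors, and 0.43 to 2.20 (median 1.11) in control tumors. Its levels were 2.64 and 2.48 in microRNA normal tissue, and 0.96 and 1.89 in control normal tissue. Control tumors 5 and 6 exceeded both control normal samples, and the difference was -0.74 (limma adjusted p = 0.16). Iigp1 differed by -0.29 and Gbp3 by -0.03.

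The chemokines that draw CXCR3-bearing T cells were not called. Cxcl10 had levels of 0.05 and 0.21 in microRNA tumors, and -0.87 to 1.45 (median 0.11) in control tumors. Its levels were -0.26 on both arrays of microRNA normal tissue, and -1.54 and -0.39 in control normal tissue. Its difference of 0.86 was the most positive of the 39 (SE 0.447, limma adjusted p = 0.159). Cxcl9 had levels of -0.93 and -2.08 in microRNA tumors, and -3.41 to 1.07 (median -0.94) in control tumors. It had -0.29 and -0.47 in microRNA normal tissue, and -1.76 and -1.22 in control normal tissue (difference -0.24, SE 0.683).

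**Figure D4:**
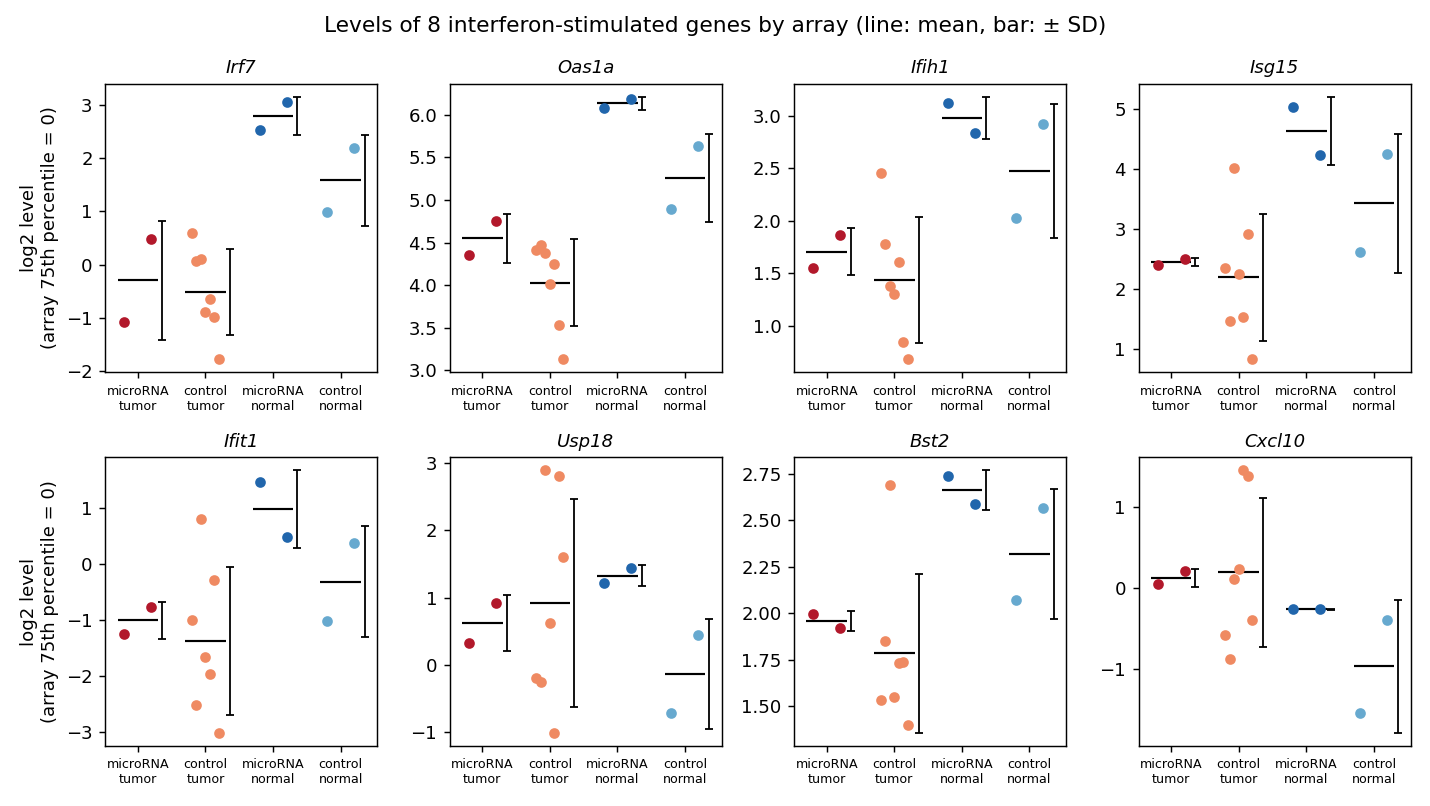
Level of 8 genes on each array (points) by group, as log2 relative to the array's 75th percentile, with the group mean as a line and 1 SD as a bar (2, 7, 2 and 2 arrays). Irf7 and Oas1a tumors lie below all normal samples, Bst2 has 1 control tumor at 2.69 among the normal samples, and for Ifit1, Usp18 and Cxcl10 tumors and normal samples overlap over both groups of mice.

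The tumor difference was then taken within each group of mice. In control mice, Irf7 and Oas1a were lower in tumors, with differences of -2.09 (SE 0.593, limma adjusted p = 0.0331) and -1.23 (SE 0.356, limma adjusted p = 0.0351). These 2 of 39 calls stand beside 10.9% of all genes called lower, 8.18% called higher and 19.1% called in all. Without overlap, tumors were lower for Irf7 and Oas1a and higher for Trim25 on its brightest probe, against 18.9% and 14.7% of all genes; Oas1g, not well above background on any control array, is left out of this count. The median of the members was -0.44, against -0.09 over all genes, and 12 differences were positive. Without scaling between arrays the members' median was 0.61. Leaving out the scaling moves all genes by the same amount, so -0.09 does not stand beside that value. The control normal samples and 6 of the 7 control tumors were on different slides. On slide 2 alone, where the only control tumor is number 3, the members' median was 0.52. With the slide as a block it was -0.06, with none called in the limma fit. Neither call held without control normal 1 (0 called), control normal 2 (0), control tumor 4 (0) or control tumor 6 (0), and 4 genes were called without control tumor 3.

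In microRNA mice, Irf7 was lower in tumors, with a difference of -3.09 (SE 0.739, limma adjusted p = 0.0466). Of all genes, 1.76% were called lower, 1.42% higher and 3.18% in all. The difference was negative for 35 of the 39 members, with a median of -1.10, against -0.14 over all genes. Without scaling between arrays the members' median was -0.20. All genes move by the same amount there, so -0.14 does not stand beside it. Tumors lay below normal tissue without overlap for 28 members and above it for 1, Cxcl10. Over all genes the shares without overlap were 33.2% and 20.4%, in a comparison of 2 arrays with 2. The members' median was -0.82 on slide 1 and -1.30 on slide 2, each with 1 tumor and 1 normal array. The slide 1 value is the one given for both groups of mice, from the same 2 arrays. The call of Irf7 was lost without any single array of microRNA mice or of control normal tissue, and without control tumor 2, 4, 5 or 6 (0 members called each time). Without control tumor 1, 3 members were called, and 2 without control tumor 3 or 7.

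In normal tissue, no member passed the test for microRNA against control mice, and 38 of 39 had a positive difference, the same number without scaling between arrays. Both control normal arrays were on slide 2, with 1 microRNA normal array on each slide, so slide and treatment partly go together. On slide 2 the members' mean level was 1.81 in microRNA normal 1, against 0.48 and 1.25 in control normal tissue. The median difference was 0.87, against 0.04 over all genes, and 5 members (12.8%) had an unadjusted p under 0.05, against 5.5% of all genes. Of all genes, 0.284% were called higher and 0.248% lower (0.532% in all). The smallest adjusted p was that of Parp14 (difference 1.02, SE 0.319, limma adjusted p = 0.476), with 3.28 and 3.19 in microRNA mice against 1.96 and 2.46 in control mice. Oas3 had -0.32 and 0.29 in microRNA mice, against -3.45 and -0.71 in control mice, a difference of 2.07 with an SE of 1.10. Gbp2 was the exception, at -0.05. Both microRNA samples lay above both control samples for 26 members, where 22.4% of all genes did so. They lay below for none, against 18.2% of all genes. Oas1g, counted among the 26, passed the filter on dim probes only through the microRNA arrays. Its order is therefore no measured separation.

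Oas1g was well above background on both arrays of microRNA normal tissue and on none of control normal tissue, so the size of its difference is not known. Control normal 1 was the lowest normal array for 34 of the 39 genes, and control normal 2 was above it for 38. Without control normal 1 the members' median was 0.53, and without control normal 2 it was 1.24. Markers of other tissue moved with these groups. The mean level of 8 small intestine markers was 3.31 and 2.37 in microRNA normal tissue, against -1.43 and -0.48 in control normal tissue. Fabp6, the ileal bile acid carrier, differed by 6.89 (limma adjusted p = 0.0136). The mean of 8 squamous epithelium markers was -2.88 and -3.10 in microRNA normal tissue, against 0.34 and -0.60 in control normal tissue, and Krt5 differed by -5.22 (limma adjusted p = 0.000421). Their part in the members' difference was not tested.

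Between microRNA and control tumors no member was called by the limma test (0 called; 0.00394% of all genes called). The median was 0.15, against -0.002 over all genes. Without scaling between arrays the members' median was -0.014, by a shift that all genes share. Of the 39 differences 24 were positive, and 1 member had an unadjusted p under 0.05 (2.56%, against 2.1% of all genes). That gene was Oas1g, which passed the filter on dim probes only through the microRNA arrays, with levels of -4.63 and -4.22 in microRNA tumors, against -6.96 to -4.93 (median -5.24) in control tumors. It was not well above background in any control tumor, so the size of its difference is not known. The order of its values against those of the control tumors is therefore no measured separation. The other 38 members overlapped between the groups, where 1.22% of all genes were higher and 1.27% lower without overlap. With the slide as a block the members' median was -0.04, and it was 0.26 on slide 1 and -0.64 on slide 2, where the only control tumor is number 3.

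The tumor difference was not shown to depend on the treatment. For the difference of the tumor effects, microRNA minus control mice, 0 of 39 members were called by limma, beside 0.28% of all genes (0.102% higher, 0.177% lower). The median was -0.69, against -0.04 over all genes, and 1 member (2.56%, against 6.19% of all genes), Parp14, had an unadjusted p under 0.05 (-1.11, SE 0.409, limma adjusted p = 0.71). Without control normal 1 this median was -0.25, and without control normal 2 it was -0.93.

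Tumors differed from each other over a wide range. Over the 7 control tumors the range was 4.48 log2 units for Cxcl9, 4.12 for Ifit3, 3.90 for Usp18 and 3.80 for Ifit1. The 3.75 of Oas3 rests on control tumor 7, where it was not well above background. At the other end, Eif2ak2 spanned 0.69 and Trim25 0.81. Among all 9 tumors, control tumor 3 was the highest for 16 genes and control tumor 7 the lowest for 21. The mean level of the 39 genes was 0.48 and 0.76 in microRNA tumors. In control tumors 1 to 7 it was 0.48, 0.10, 1.15, 0.33, 0.37, 0.94 and -0.15, so the microRNA tumors lay inside the span of the control tumors.

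The members did not all follow each other in tumors. The Pearson correlation of each gene with the mean of the others over the 9 tumors, which share the scaling, had a median of 0.66. It was above 0.8 for 11 genes, led by Ifit1 (0.96), Gbp3 (0.95), Xaf1 (0.93), Isg15 (0.92) and Cmpk2 (0.92). It was below 0.3 for 9 genes, among them Irf1 (-0.23), Ifih1 (-0.07), Cxcl9 (0.01), Oas1a (0.20) and Irf7 (0.27). Irf7, Irf1, Ifih1 and Oas1a were among the genes called lower in tumors. Control tumor 5 shows the split: it was the highest tumor for Cxcl9 and Cxcl10, at 1.07 and 1.45, and lay at -1.96 for Ifit1, against a control tumor median of -1.66.

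Outside the set, the genes whose level was most like the members' mean standardised level over the 13 arrays were D14Ertd668e (r = 0.95), Gm9706 (0.94), a transcript named by its position (0.93) and Apol9b (0.93). Phf11 (0.92), Apol9a (0.92), Oraov1 (0.91), Ogfr (0.90), Trex1 (0.90) and Cylc2 (0.90) followed. The probe of Gm9706 is the one that shares bases with Isg15. Trex1 encodes the exonuclease that removes cytosolic DNA.

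Upstream of these genes, the receptor chains of type I interferon rose in tumors. Ifnar1 had levels of 1.59 and 1.76 in microRNA tumors, and 1.60 to 2.59 in control tumors. It had 1.15 and 1.37 in microRNA normal tissue, and 0.68 and 0.98 in control normal tissue (difference 0.91, SE 0.210, limma adjusted p = 0.0083). Ifnar2 rose by 0.88 (SE 0.169, limma adjusted p = 0.00366). Ifngr1, a receptor chain of interferon gamma, fell (difference -0.77, limma adjusted p = 0.0203). Without scaling between arrays Ifngr1 turned to 0.23 and was not called. Of 10 receptor and kinase genes tested, these were 2 higher and 1 lower, beside 11.7% of all genes called higher and 19.7% called lower. Of 18 interferon genes, 9 were tested, and 1 was lower, Il28b (difference -0.55, limma adjusted p = 0.0253; 0.44 and not called without scaling between arrays). Ifng differed by -1.37 (limma adjusted p = 0.0579) and was well above background on 2 of 7 control tumors, on both microRNA normal arrays and on no other array.

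Among 17 genes that relay nucleic acid sensing, 3 were higher and 2 lower in tumors, against 12 higher and none lower without scaling between arrays. Of all genes, 11.7% were called higher and 19.7% lower, against 57.4% and 2.73% without scaling. Tmem173 (STING), the adaptor of cytosolic DNA sensing, had levels of 4.62 and 3.74 in microRNA tumors, and 3.17 to 5.66 in control tumors. It had 1.22 and 0.91 in microRNA normal tissue, and 1.40 and 1.11 in control normal tissue, below every tumor (difference 3.11, SE 0.447, limma adjusted p = 0.000916). E330016A19Rik was higher, with a difference of 0.96 (limma adjusted p = 0.00584), and Ticam1, the adaptor of Toll-like receptor 3, was lower, with -1.11 (limma adjusted p = 0.00263). Of 13 negative regulators, 2 were higher and 1 lower, against 8 higher and none lower without scaling. Socs3, an inhibitor of cytokine receptor kinases, rose by 1.95 (limma adjusted p = 0.00322), Rnf125 rose by 0.76 (limma adjusted p = 0.032) and Foxo3 was lower (-1.27, limma adjusted p = 0.0466).

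A second list of 50 tested interferon-stimulated genes outside the 39 had 15 lower and 4 higher in tumors, with a median of -0.44. Without scaling between arrays 3 were lower and 16 higher, with a median of 0.56. Of all genes, 19.7% were called lower and 11.7% higher, with a median of -0.11. Without scaling these values were 2.73%, 57.4% and 0.89, so all genes moved upward as well. Ccl5, a chemokine of T cells, was lower, with a difference of -3.69 (limma adjusted p = 0.00304). Ifitm1 and Ifitm3, membrane proteins that block viral entry, rose by 3.36 (limma adjusted p = 0.000323) and 2.49 (limma adjusted p = 0.00187). Of 13 genes of the MHC class I pathway, which presents peptides to CD8 T cells, 11 were lower and none higher, with a median of -1.13; without scaling none was called and the median was -0.14. They include Psmb9 (-1.71), H2-T23 (-1.42) and H2-K1 (-1.17), with limma adjusted p of 0.0016, 0.00187 and 0.00326. Of 7 MHC class II genes 6 were lower, led by H2-DMa (-1.45), with a median of -1.16; without scaling 1 was lower and the median was -0.16.

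Markers of cell types were counted in the same comparison, beside 19.7% of all genes called lower and 11.7% called higher. Without scaling between arrays these shares were 2.73% and 57.4%. Of 12 T and NK cell markers tested, 9 were lower in tumors and none higher, with a median of -1.65; without scaling 4 were lower and 1 higher, with a median of -0.65. Their mean level was -2.08 to -1.90 in microRNA tumors and -2.25 to -0.88 in control tumors, and 0.22 to 0.57 in microRNA normal tissue and -0.61 to -0.38 in control normal tissue. Of 8 B cell markers 2 were lower, and of 5 plasmacytoid dendritic cell markers, the strongest makers of type I interferon, 2 were lower and 1 higher. Of 7 neutrophil markers 4 were higher, and of 12 macrophage and dendritic cell markers 1 was higher, with none lower in either list. The 2 lower B cell markers and the 1 higher macrophage or dendritic cell marker are near the shares of all genes. All 8 smooth muscle, all 6 adipocyte, 7 of 8 small intestine and 6 of 8 colonocyte markers were lower in tumors. Of 9 epithelial markers 5 were lower and of 7 fibroblast markers 3 were higher. Without scaling between arrays, B cell markers had 1 higher and none lower, epithelial markers 3 higher and none lower, and plasmacytoid dendritic cell markers 3 higher and 1 lower. The part of these lists in the members' differences was not tested.

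Over the 13 arrays, the members' mean standardised level correlated with the mean level of small intestine (r = 0.73), MHC class I (0.71) and T and NK cell genes (0.67). Over the 9 tumors the same values were -0.12, -0.06 and 0.05, and that of the second interferon list was 0.75. Other lists had larger values there, of either sign. They were -0.58 for colonocyte, 0.54 for squamous epithelium, 0.50 for macrophage and dendritic cell, -0.49 for B cell and 0.43 for neutrophil markers. Arrays share the scaling, and these are descriptions.

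**Figure D5:**
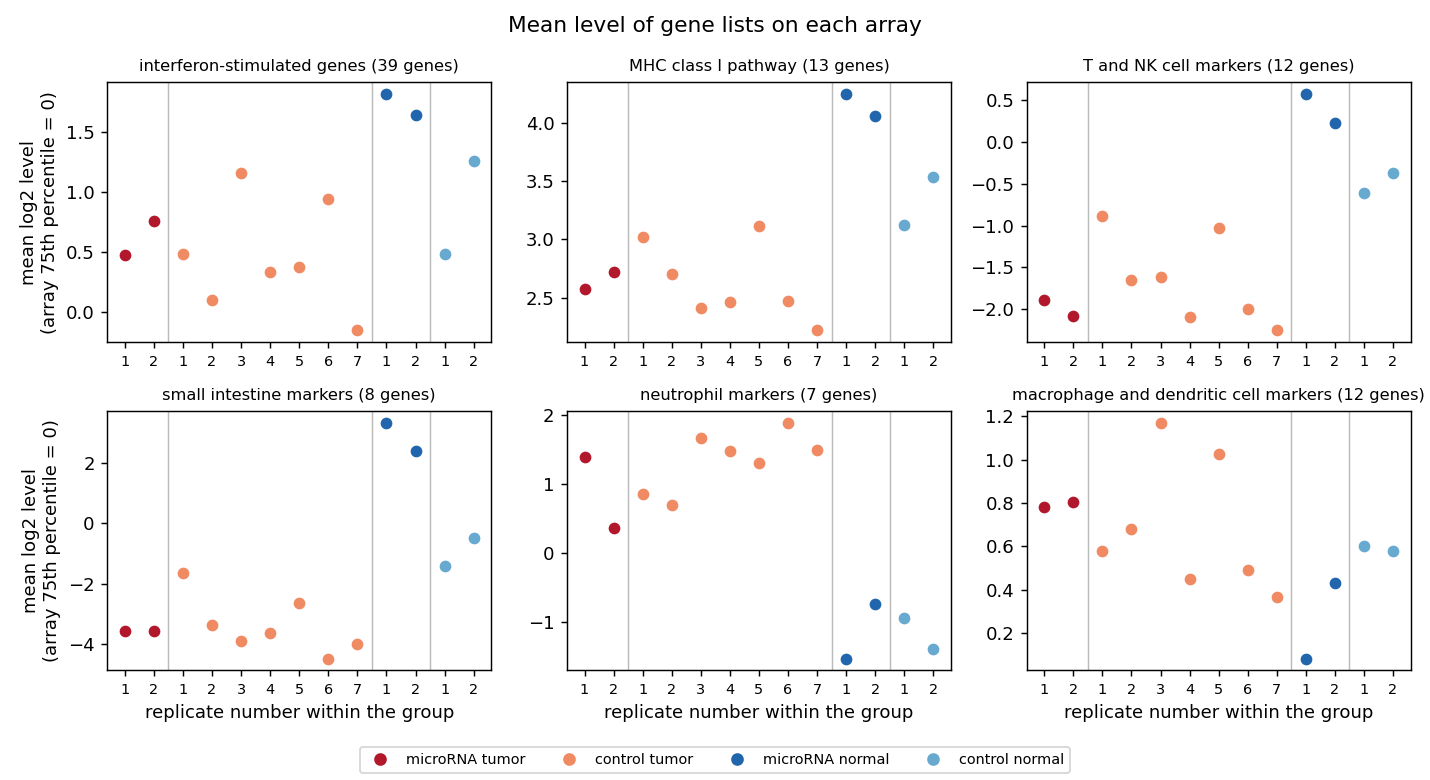
Mean log2 level (relative to the array's 75th percentile) of 6 gene lists on each array, colored by group. The 39 genes span -0.15 to 1.15 in control tumors, MHC class I and T and NK cell means are higher on the normal arrays, and small intestine markers stand at 3.31 and 2.37 in microRNA normal tissue.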

How the data were processed

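The authors labelled 35 ng of total RNA per sample with Cy3 and read mouse expression arrays in 1 colour, per the labels' protocols. Per the file headers, the deposited intensity values were made with Feature Extraction 10.7.3.1 (protocol GE1_107_Sep09) as background-subtracted processed signal, with no step that puts arrays on 1 scale. The table deposited for the whole series repeats these intensity values without any difference.

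Control spots (3671) were left out and flagged spots (1957) set to missing, which left 55681 probes, 85 of them without a value on some array; fits skip missing values. The log2 signal of each array was reduced by its 75th percentile, and 50.7% to 57.0% of the probes of an array exceeded background clearly. Probes well above background on at least 2 of 13 arrays were kept, and the brightest probe stood for a gene. The arrays' number limits the precision. All 13 arrays entered 1 limma 3.58.1 fit (R 4.3.3, version 1.17.8 of data.table): an additive model of tissue and treatment for the tumor difference over both groups of mice, and 4 group means for the other contrasts, with Benjamini-Hochberg adjusted p under 0.05 over all 25393 genes. Simulated arrays with known changes were used to check the fit. Their noise was independent between arrays, with no effect of slide, file name number or array intensity, so they could not check for these. Figures were drawn with Python 3.11.15, pandas 2.3.3 and matplotlib 3.10.9. Probe coordinates are those of the files (mm9) and promoters are RefSeq's (GRCm38.p6).

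The members, the role groups and the other lists were chosen with earlier results of these data known. Every member is named; values by array are given for the 3 members of each role with the smallest p, others after their values were seen. From each other list up to 3 genes with the smallest p are named, with others such as Ifng, Fabp6 and Krt5 chosen after their values were seen. Alternatives covered background correction (normexp, offset 50), scaling, the filter, the probe rule, the eBayes settings, the arrays in the fit, the slide, the replicate number, the file name's number and leaving out each array.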

Additional observations from a re-analysis of the deposited data

Results flagged for a closer look

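Bst2 in control tumor 3 stood apart from the other control tumors. Its level was 2.69 on the log2 scale, and the gap to the nearest of the other 6 was 0.652 of the group's whole range, above the 95% critical value of Dixon's test for 7 samples. Each of the 39 genes was examined in this way, and chance flags about 1 gene in 20.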

How the results depend on the processing

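In the tumor difference over both groups of mice, 11 members were called, and median scaling gave 5. Without scaling between arrays, which leaves the intensity gap between tissues in, 8 were called (7 higher), the members' median was 0.33, and Dhx58 (0.10), Ifi35 (0.12) and Irf1 (0.17) changed sign without being called. Of all genes called, 37.3% were higher in tumors, against 51.6% with quantile normalization, 50.8% with median scaling, 20.9% with normexp, 23.96% with no filter on dim probes and 95.5% without scaling; the number called was 12190 with normexp, 12978 with no filter and 15260 without scaling, against 7974.

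In control mice 2 members were called, against 4 with normexp, 0 with the slide as a block and 8 higher without scaling (median 0.61). The count was 1 each with quantile normalization, median scaling, the compared groups alone and the file name number as a random block. On slide 2 alone the median was 0.52. In microRNA mice 1 was called, against 4 with normexp and 2 with trended and robust eBayes. It was 8 with the file name number as a random block, and 0 with quantile normalization, median scaling or no scaling (median -0.20). These counts stand without the share of all genes called in the same setting. A change in the members cannot be told from a change in all genes by them. The median of microRNA against control tumors turned negative without scaling (-0.014), with the slide as a block (-0.037) and on slide 2 alone (-0.64). That of the difference of the tumor effects was -1.31 on slide 2 alone. The cause of these changes was not tested.

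Leaving out 1 array at a time gave 2 to 18 calls over both groups of mice, 0 to 4 in control mice, 0 to 3 in microRNA mice and 0 in the other contrasts. Irf7 and Oas1a kept their call over both groups of mice in 13 of 13 such fits, Oasl2, Ifih1 and Ifi35 in 12, Dhx58 in 11, Irf1 and Zbp1 in 10, Oasl1 in 7, Oas3 in 6 and Isg15 in 5. A fit of the 8 arrays numbered 1 and 2 took the replicate number as a block and dropped control tumors 3 to 7. It called 8 members over both groups of mice, 0 in control mice and 3 in microRNA mice. The counts of this paragraph also stand without the share of all genes called in the same fit. No label says that a number marks a shared animal or batch; same-numbered microRNA arrays also share a slide and a file name number. Deviations of same-numbered samples correlated at 0.42 between microRNA normal tissue and tumors, and at -0.19 to 0.33 between the other groups.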
